A study of Rattus norvegicus with 6 samples.

Results

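The vascular miRNAs miR-126, miR-143 with miR-145, and miR-221 with miR-222, were examined in the lumbar spinal cord of rats with bone cancer pain (BCP). The members were taken by name from the table of known mature miRNAs, with both arms of each hairpin, which gave 10 of 753 listed miRNAs from 5 precursors at 3 loci. rno-miR-222-5p was listed at 0 in every library, and the other 9 members all carried reads and passed the filter on low counts. Small RNA was sequenced on day 14 from 3 BCP rats, whose left tibia had received living Walker 256 cells, a rat breast carcinoma line, and from 3 sham-operated rats, which had received heat-killed cells of the same line. The labels give the strain as Wistar, whereas the methods of the study give female Sprague Dawley rats, and age is given in neither. The tissue was the injected side of the lumbar enlargement without meninges. It was snap-frozen, and perfusion is described only for other rats.

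MicroRNAs are cut from a hairpin precursor that holds a 5p and a 3p arm. One arm, the guide strand, is usually kept in the silencing complex, where the bases at positions 2 to 8, the seed, pair with target mRNAs, and the other arm, the passenger strand, is mostly degraded. miR-126 is made from an intron of Egfl7, a gene of endothelial cells, and is known for its role in vascular integrity. miR-143 and miR-145 are made from 1 shared transcript and are typical of smooth muscle cells, pericytes and other mesenchymal cells. miR-221 and miR-222 are also made together. They are known from endothelium and from dividing smooth muscle cells, where they act on the cell cycle inhibitor p27, but they are not confined to vessels.

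The mature sequences are shown because the arms of 1 hairpin and the partners of 1 locus carry different seeds, with 1 exception. All 10 names matched RefSeq entries of the rat assembly GRCr8, and capitals mark the seed.

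rno-miR-126a-3p: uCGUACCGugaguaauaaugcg

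rno-miR-126a-5p: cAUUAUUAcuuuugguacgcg

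rno-miR-143-3p: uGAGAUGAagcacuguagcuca

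rno-miR-143-5p: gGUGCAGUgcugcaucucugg

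rno-miR-145-5p: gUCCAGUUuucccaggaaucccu

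rno-miR-145-3p: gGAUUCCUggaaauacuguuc

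rno-miR-221-3p: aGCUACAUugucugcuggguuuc

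rno-miR-221-5p: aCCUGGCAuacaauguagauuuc

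rno-miR-222-3p: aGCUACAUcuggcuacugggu

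rno-miR-222-5p: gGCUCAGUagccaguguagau

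miR-221-3p and miR-222-3p were the only members with a common seed, GCUACAU. Aligned from their 5′ ends without gaps, they were identical at 11 of 21 positions, so the reads of these partners differ well beyond a single base. The members were 21 to 23 nucleotides long. GC content ran from 38.1% in miR-126a-5p to 61.9% in miR-143-5p, against a median of 47.8% over the 427 tested miRNAs with a RefSeq sequence.

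The total count lay between 13464349 and 23770677 per library, and the deepest library was that of BCP rat 1. Levels are given as CPM, the count scaled to the size of the library, with TMM factors from edgeR. A mature miRNA is read whole, so no correction for length was made, although the ligation and amplification of small RNAs can favour some sequences over others. The 10 members together took between 2.21% and 3.15% of all counts of a library. The labelled tissue was checked on markers of cord cells, and the neuronal miR-124-3p, miR-9a-5p and miR-128-3p, the oligodendrocyte miR-219a-2-3p and the HOX cluster miR-10a-5p and miR-10b-5p had group means between 2699 CPM (miR-124-3p) and 70764 CPM (miR-9a-5p). The second oligodendrocyte marker, miR-338-3p, was low, at 25.4 CPM in the BCP group and 24.1 CPM in the sham-operated group. The hairpin was not scarce. In the log2 CPM of edgeR, averaged over all libraries, miR-338-3p was at 4.63 and the other arm, miR-338-5p, was at 12.5.

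The 9 members with reads covered a wide range of levels, and the order of their means was the same in both groups. miR-126a-3p, the endothelial guide strand, was the most abundant member, with rank 17 of 753 and 1.69% of the counts. miR-143-3p followed with rank 28 and 0.819%. The guide strands miR-221-3p (rank 91), miR-145-5p (rank 111) and miR-222-3p (rank 167) were far lower, and miR-126a-5p (rank 147) stood beside miR-222-3p. Passenger strands made up the rest, in the order miR-145-3p, miR-221-5p (rank 276) and miR-143-5p (rank 301). Between neighbours in this order, the values of the 6 rats overlapped for 1 pair, miR-126a-5p and miR-222-3p, and were separate for the others.

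No member passed the quasi-likelihood test of edgeR between BCP and sham-operated rats. Of 459 tested miRNAs, 16 (3.49%) passed a log2 fold change beyond 0.8 in either direction with an adjusted p below 0.05, and 0 of the 9 tested members were among them. At an unadjusted p below 0.05 the number of members was 0 as well. The count of members past both thresholds was also 0 with DESeq2, limma-voom and the likelihood ratio and exact tests of edgeR. By fold change 8 members were above 0 and 1 was below it, with a median log2 fold change of 0.11 against -0.0034 over all tested miRNAs. With an offset for GC content, which moved the median of all miRNAs to -0.096, 6 members were above that median and 3 below it. The 95% interval of the change lay within 0.8 in either direction for 8 members and reached 0.85 for miR-126a-5p. In whole tissue, fewer cells of a type and less of a miRNA per cell cannot be told apart, so a level here is that of the tissue.

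**Figure D1:**
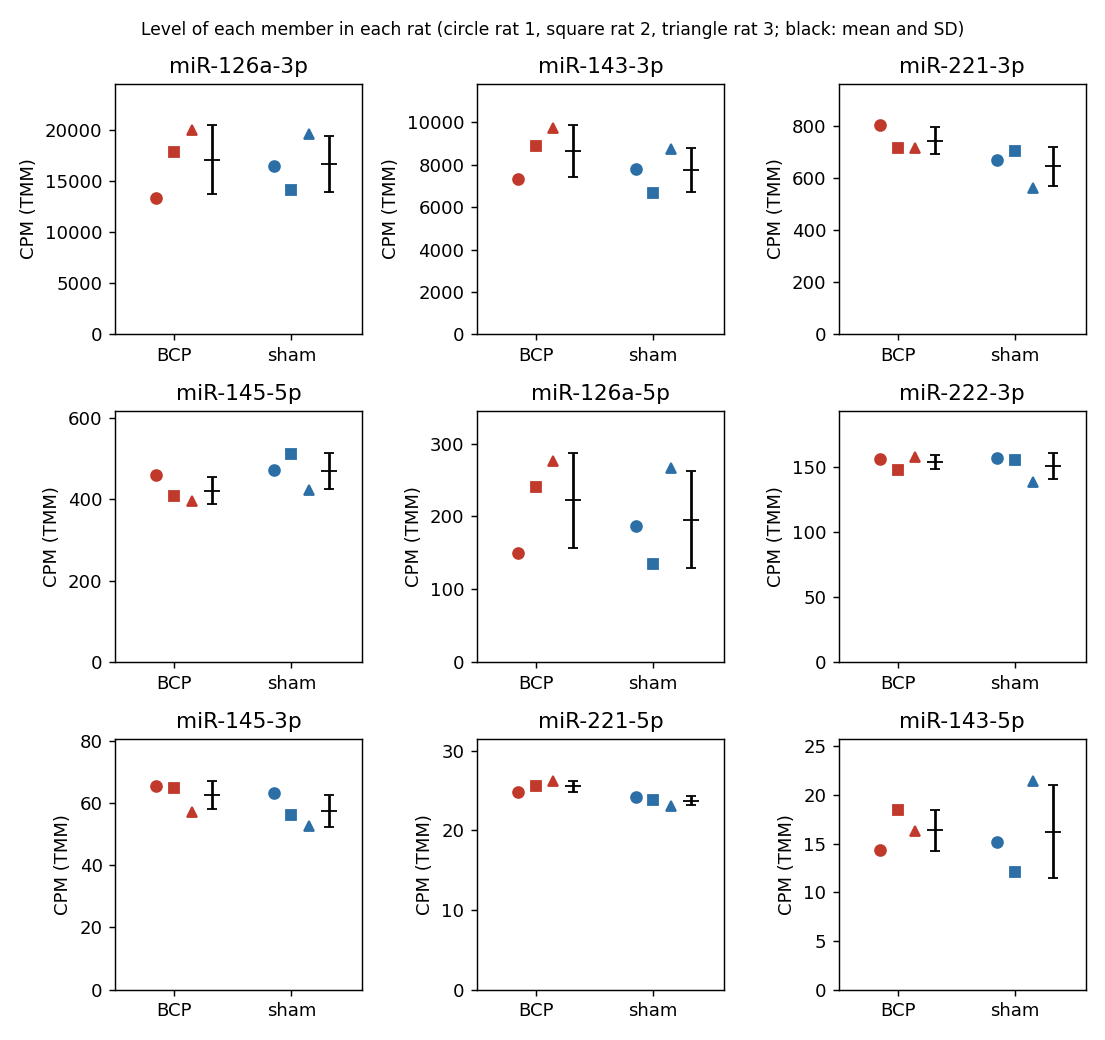
Level of each of the 9 members with reads, in TMM-scaled CPM on a linear axis from 0, in each BCP (red) and sham-operated (blue) rat, with the group mean and SD (n = 3 rats) in black. The groups overlap for all members except miR-221-3p and miR-221-5p, whose BCP rats lie slightly above the sham-operated rats.

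The endothelial miR-126a-3p was nearly level between the groups but spread widely within each of them. BCP rats 1, 2 and 3 had 13381, 17848 and 19985 CPM, against 16439, 14106 and 19580 CPM for sham-operated rats 1, 2 and 3. BCP rat 1 was the lowest of all 6 rats, and sham-operated rat 3 was close to BCP rat 3. The means were 17071 ± 3370 CPM in the BCP group and 16708 ± 2747 CPM in the sham-operated group (SD, n = 3 rats each). The log2 fold change was 0.031 (SE, the standard error of the fit, 0.171, adjusted p = 0.964, quasi-likelihood test of edgeR), and its 95% interval ran from -0.36 to 0.43.

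The other arm, miR-126a-5p, closely followed this order of rats with a larger spread. Its levels were 149, 241 and 276 CPM in the BCP rats, against 186, 134 and 266 CPM in sham-operated rats. The means of 221.9 ± 65.1 and 195 ± 66.3 CPM (SD, n = 3 rats each) gave a log2 fold change of 0.18 (SE 0.290, adjusted p = 0.827, same test). With a rat left out, this change ran from -0.036 (without sham-operated rat 2) to 0.44 (without sham-operated rat 3). With the GC offset it was -0.084, or 0.012 above the median of all miRNAs. The groups overlapped, and the coefficient of variation was 29.3% in the BCP group and 33.9% in the sham-operated group, against medians of 11.3% and 14.9% over all tested miRNAs. The 2 arms of the endothelial hairpin thus varied more between rats than most miRNAs, while counting error was at most 2.22% in any library.

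miR-143-3p, the more abundant guide strand of the mural cell locus, followed a similar order of rats. It had 7309, 8861 and 9715 CPM in the BCP rats, against 7791, 6665 and 8742 CPM in sham-operated rats. The mean was 8629 ± 1220 CPM in the BCP group and 7732 ± 1040 CPM in the sham-operated group (SD, n = 3 rats each), which gave a log2 fold change of 0.16 (SE 0.139, adjusted p = 0.685, quasi-likelihood test of edgeR). It was 0.054 without BCP rat 3, 0.056 without sham-operated rat 2 and 0.25 without BCP rat 1. BCP rat 1 lay below sham-operated rats 1 and 3, so the groups overlapped. The passenger strand miR-143-5p had 14.3, 18.5 and 16.3 CPM in the BCP rats, against 15.1, 12.1 and 21.5 CPM in sham-operated rats. Its log2 fold change was 0.0077 (SE 0.218, adjusted p = 0.9997 in the same test), a value whose sign differed under total counts or RLE normalization.

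miR-145-5p, the guide strand of the second hairpin of that transcript, was the only member with a mean below that of the sham-operated group. Its levels were 459, 408 and 396 CPM in the BCP rats, against 472, 512 and 423 CPM in sham-operated rats. BCP rat 1 exceeded sham-operated rat 3, so the groups overlapped here too. The log2 fold change was -0.16 (SE 0.119, adjusted p = 0.647, quasi-likelihood test of edgeR), from 469 ± 44.4 CPM in the sham-operated group to 421 ± 33.2 CPM in the BCP group (SD, n = 3 rats each). Its passenger strand miR-145-3p had 65.6, 64.9 and 57.2 CPM in the BCP rats, against 63.1, 56.3 and 52.8 CPM in sham-operated rats. With a log2 fold change of 0.13 (SE 0.126, adjusted p = 0.724, same test) it lay on the other side of 0 from its own guide strand. With the GC offset miR-145-3p was below 0 but 0.026 above the median of all miRNAs, and miR-145-5p was at -0.095 from that median. With a rat left out, miR-145-5p ran from -0.26 (without sham-operated rat 3) to -0.093 (without sham-operated rat 2), and was -0.24 without BCP rat 1. miR-145-3p was 0.035 without sham-operated rat 3 and 0.073 without BCP rat 1.

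For miR-221-3p each BCP rat lay above each sham-operated rat. It had 801, 714 and 715 CPM in the BCP rats, against 668, 703 and 561 CPM in sham-operated rats. The gap between the groups, from 703 to 714 CPM, was small against the spread inside each of them. The means were 744 ± 50.1 and 644 ± 74.3 CPM (SD, n = 3 rats each), 1.15-fold higher in the BCP group, with a log2 fold change of 0.21 (SE 0.120, adjusted p = 0.540, quasi-likelihood test of edgeR). The fold change was 0.084 without sham-operated rat 3 and 0.13 without BCP rat 1, and ran to 0.27 with another rat left out.

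The passenger strand miR-221-5p was the other member without overlap. Its levels were 24.9, 25.6 and 26.2 CPM in the BCP rats, against 24.2, 23.9 and 23.1 CPM in sham-operated rats. The log2 fold change was 0.11 (SE 0.110, adjusted p = 0.725, same test), and 0.057 without sham-operated rat 3. With the GC offset it changed sign to -0.15, which was -0.056 from the median of all miRNAs. Between 335 and 586 reads stood behind each value, a counting error of 4.13% to 5.46%, so a difference of this size between single rats is within counting error. A two-sided exact permutation test gave p = 0.1 for both arms, the smallest value that 3 rats against 3 allow. Of all tested miRNAs 13.3% were higher in every BCP rat without overlap and 5.23% were lower, compared with 2 and 0 of the 9 members.

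miR-222-3p, which shares the seed and the transcript of miR-221-3p, was steady over the 6 rats. It had 156, 148 and 158 CPM in the BCP rats, against 157, 156 and 139 CPM in sham-operated rats. The groups overlapped, and the log2 fold change was 0.029 (SE 0.110, adjusted p = 0.951, quasi-likelihood test of edgeR). The coefficient of variation, 3.53% in the BCP group and 6.76% in the sham-operated group, was below the median of all tested miRNAs in both.

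**Figure D2:**
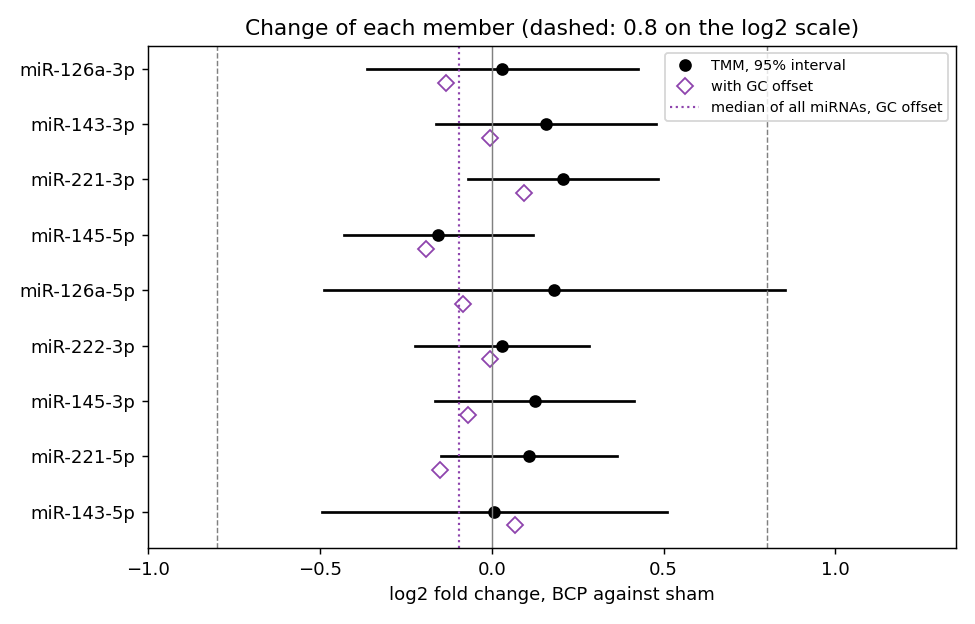
Log2 fold change of each member in BCP against sham-operated rats with its 95% interval (black, TMM scaling), and the value after an offset for GC content (open diamonds), with dashed lines at 0.8 in either direction. All intervals include 0, only that of miR-126a-5p reaches past 0.8, and the dotted line marks the median of all miRNAs with the offset, -0.096. Of the 9 diamonds, 6 lie above that median and 3 below it.

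The arms of each hairpin were compared within libraries, where the scaling of the library cancels but an effect of GC content does not, because the arms differ in it. The ratio of guide to passenger strand differed greatly between the precursors. In the sham-operated group miR-143-3p was on average 490-fold above miR-143-5p, miR-126a-3p was 89.0-fold above miR-126a-5p and miR-221-3p was 27.1-fold above miR-221-5p, whereas miR-145-5p was only 8.19-fold above miR-145-3p. The guide strand was the 3p arm in all hairpins but that of miR-145.

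Among the 4 hairpins, the passenger share of miR-145 alone did not overlap between the groups as counted, and it overlapped with the GC offset. miR-145-3p made up 12.5%, 13.7% and 12.6% of the reads of its hairpin in the BCP rats, against 11.8%, 9.91% and 11.1% in sham-operated rats. Each BCP rat was above each sham-operated rat, with means of 12.9% ± 0.665 and 10.9% ± 0.946 (SD, n = 3 rats each). The log2 ratio of 5p to 3p differed by -0.28 in the BCP group (SE 0.105), with an unadjusted p of 0.0341 and an adjusted p of 0.784 from limma over the 149 precursors with both arms tested. The exact permutation test gave p = 0.1, its smallest possible value. With the GC offset the difference was -0.12 (adjusted p = 0.804 from limma over 133 precursors). Of the 149 precursors without the offset, 0 (0%) passed an adjusted p of 0.05 and 9 had an unadjusted p below 0.05. The groups did not overlap for 12.8% of them, compared with 1 of the 4 member precursors.

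For the other hairpins the shares overlapped between the groups. miR-126a-5p made up 1.10% to 1.36% of its hairpin in the BCP rats, against 0.941% to 1.34% in sham-operated rats. miR-143-5p made up 0.168% to 0.208% and 0.181% to 0.245% in the same order. For miR-221-5p the ranges were 3.01% to 3.54% and 3.28% to 3.95%. The difference of the log2 ratio of 5p to 3p was 0.17 for miR-126a, -0.11 for miR-143 and -0.10 for miR-221, with adjusted p from 0.795 to 0.805 in the same limma fit. With a rat left out, that of miR-126a ran from 0.0399 (without sham-operated rat 2) to 0.297 (without sham-operated rat 3). That of miR-221 was -0.026 without sham-operated rat 3 and -0.028 without BCP rat 1, and -0.16 without sham-operated rat 2. With the GC offset the differences were 0.054 for miR-126a, 0.13 for miR-143 and -0.24 for miR-221. The last was without overlap of the groups (unadjusted p = 0.0477 and adjusted p = 0.608 from limma, exact permutation p = 0.1). Of the 133 precursors fitted with the offset, 0 passed an adjusted p of 0.05.

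**Figure D3:**
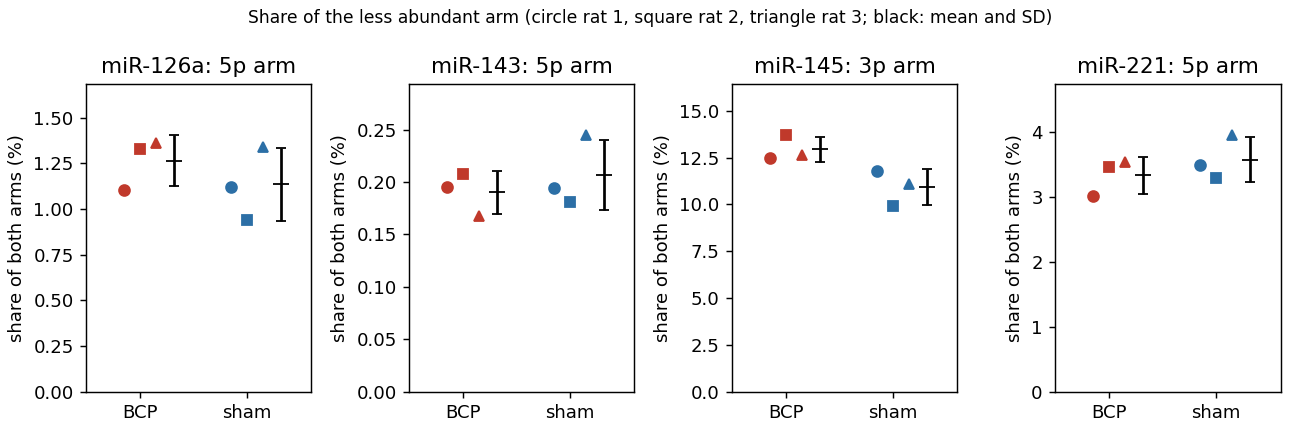
Share of the less abundant arm in the reads of its hairpin, in percent on a linear axis from 0, in each BCP (red) and sham-operated (blue) rat, with mean and SD (n = 3 rats) in black. The miR-145-3p share is at 12.5% or more in each BCP rat and at 11.8% or less in each sham-operated rat, while the groups overlap for the other 3 hairpins. The shares are as counted, without the GC offset.

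The arm miR-222-5p had 0 reads beside 2006 to 3686 reads of miR-222-3p. With 3 reads taken as the smallest number that can be told from 0, this allows a share of its hairpin of at most 0.0813% to 0.149% in a library, or 0.126 to 0.223 CPM, in counting error only. The related miR-221-5p was at 3.01% or more of its own hairpin. A listed 0 may also come from how reads were assigned, since 150 of the 753 names were at 0 in every library. Among them were miR-142-3p and miR-142-5p of white blood cells and miR-144-3p, miR-144-5p and miR-451-5p of red blood cells. Of the 152 listed miRNAs of 21 nucleotides, the length of miR-222-5p, 18.4% were at 0 in all libraries.

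The partners and loci were next set against each other by the ratio of their guide strands within each library. There were 5 such ratios, and a two-sided exact permutation test with Benjamini-Hochberg adjustment was used. miR-143-3p was 15.9-, 21.7- and 24.5-fold above its partner miR-145-5p in BCP rats 1, 2 and 3, compared with 16.5-, 13.0- and 20.7-fold for the sham-operated rats. The groups overlapped, and the log2 difference of 0.31 (SE 0.267, exact p = 0.3, adjusted p = 0.5) was no larger than the SD inside the groups, 0.321 and 0.333. It was 0.144 without sham-operated rat 2, 0.178 without BCP rat 3, 0.489 without BCP rat 1 and 0.477 without sham-operated rat 3, and 0.19 with the GC offset.

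The ratio of miR-221-3p to miR-222-3p did not overlap. It was 5.13, 4.83 and 4.53 in the BCP rats, against 4.24, 4.50 and 4.03 in sham-operated rats. The log2 difference was 0.18 (SE 0.0691, exact p = 0.1, adjusted p = 0.25), and with the GC offset it was 0.099 and the groups overlapped. miR-143-3p relative to miR-126a-3p did not overlap as counted either, with ratios of 0.546, 0.496 and 0.486 in the BCP rats, against 0.474, 0.472 and 0.446 in sham-operated rats. This log2 difference was 0.13 (SE 0.0588, exact p = 0.1, adjusted p = 0.25), and 0.082 without BCP rat 1. The GC offset could not change this ratio, because both strands have the same GC content, 45.5%.

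The remaining ratios overlapped. miR-221-3p to miR-126a-3p had a log2 difference of 0.19 (SE 0.325, exact p = 0.6, adjusted p = 0.75) and changed sign without BCP rat 1 or without sham-operated rat 3. For miR-143-3p to miR-221-3p the difference was -0.055 (SE 0.271, exact p = 0.9, adjusted p = 0.9), again with a change of sign when either of these rats was left out. With the GC offset it was -0.097. With 3 rats against 3 the exact test could not go below 0.1, so no ratio could pass it.

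The levels of the 5 guide strands were also compared pair by pair across the 6 libraries. miR-126a-3p and miR-143-3p, from different loci and cell types, varied together, with Pearson's r = 0.919 (exact permutation p = 0.0125, adjusted p = 0.0625 over 10 pairs) and Spearman's rho = 0.886 (exact permutation p = 0.0333, adjusted p = 0.167). Without the 2 rats farthest from the median, BCP rat 1 and sham-operated rat 2, r was 0.871. miR-143-3p and miR-145-5p, from the same transcript, went in opposite directions, with r = -0.964 (exact permutation p = 0.00694, adjusted p = 0.0625) and rho = -0.943 (exact permutation p = 0.0167, adjusted p = 0.167). Without sham-operated rat 2 and BCP rat 3, r was -0.884. Neither relation passed the adjustment.

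The partners miR-221-3p and miR-222-3p gave r = 0.751 (exact permutation p = 0.113, adjusted p = 0.281) and rho = 0.486 (exact permutation p = 0.356, adjusted p = 0.889). Without BCP rat 1 and sham-operated rat 3, r was -0.418, so this relation over all libraries rested on those rats. The other 7 pairs had adjusted p of 0.222 or more for r. After the group means were taken out, which is given as a description, r was 0.993 for miR-126a-3p with miR-143-3p, -0.979 for miR-143-3p with miR-145-5p and 0.835 for miR-221-3p with miR-222-3p. Values as high came from other loci: -0.974 for miR-126a-3p with miR-145-5p, 0.962 for miR-145-5p with miR-221-3p, -0.888 for miR-126a-3p with miR-221-3p and -0.886 for miR-143-3p with miR-221-3p. The remaining pairs, each with miR-222-3p, lay between -0.513 and 0.664.

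**Figure D4:**
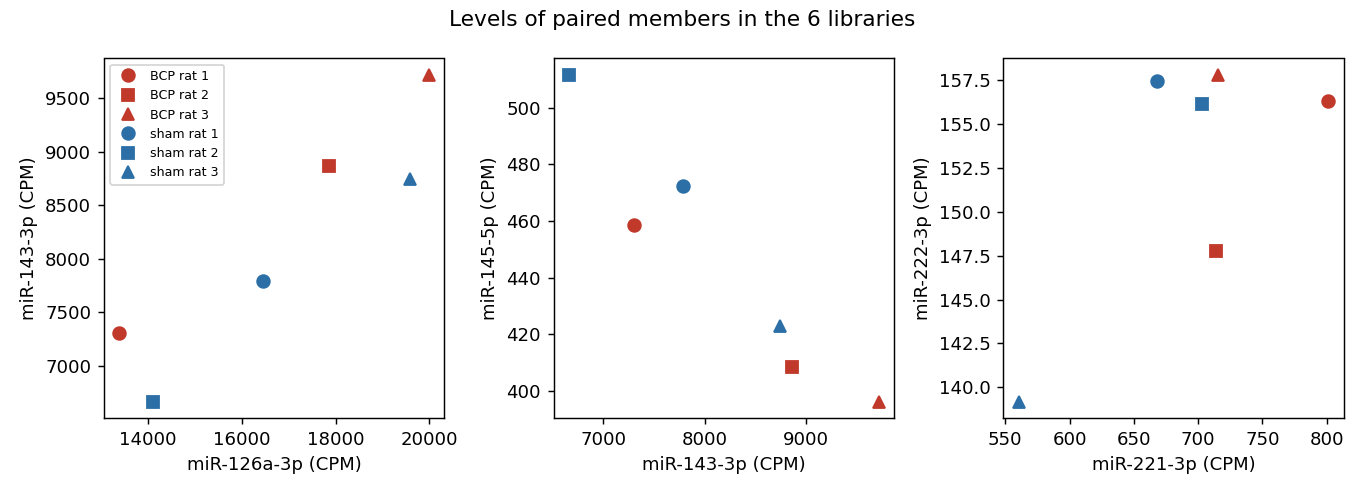
Levels in CPM, on linear axes that do not start at 0, of miR-143-3p against miR-126a-3p, miR-145-5p against miR-143-3p and miR-222-3p against miR-221-3p in the 6 libraries. The first pair varies together (r = 0.919), the second in opposite directions (r = -0.964), and BCP and sham-operated rats are mixed along both.

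Many other miRNAs shared these patterns. Of 320 tested miRNAs outside the members with a mean of at least 10 CPM, 54 had r above 0.9 with miR-143-3p and 48 had r below -0.9, and for miR-126a-3p the numbers were 46 and 19. miR-221-3p had 10 and 2. The closest to miR-143-3p were miR-872-5p (r = 0.995), miR-384-3p (0.990) and let-7c-2-3p (0.987), and the closest to miR-126a-3p were miR-708-3p (0.981), miR-24-1-5p (0.980) and miR-380-3p (0.979). miR-191a-5p (0.967), miR-25-3p (0.967) and miR-15b-5p (0.957) were closest to miR-221-3p. These values are over 6 libraries, each with its own depth and base composition for all its miRNAs, and they are given as a description.

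The libraries differed in base composition in a way that moved with some of these members and not with others. Across the 427 tested miRNAs with a sequence, Spearman's rho between GC content and the deviation of a library from the mean of all 6 was 0.354, -0.434 and -0.562 for BCP rats 1, 2 and 3, against 0.354, 0.576 and -0.337 for sham-operated rats 1, 2 and 3. miRNAs are not independent replicates, so these values describe the libraries. The 3 libraries with negative values, in which miRNAs of low GC content were higher, were those with the highest miR-126a-3p, miR-126a-5p and miR-143-3p and the lowest miR-145-5p. GC content was 45.5% in both miR-126a-3p and miR-143-3p and 52.2% in miR-145-5p. miR-143-5p, the highest in GC content at 61.9%, was also highest in these 3 libraries. miR-221-5p (39.1%) had its highest values in BCP rats 3 and 2 and its lowest in sham-operated rat 3, all of which are among these 3 libraries, and miR-145-3p (42.9%) was lowest in sham-operated rat 3.

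An offset fitted on GC content in each library, chosen after the data were seen, lowered the median log2 fold change of all 427 miRNAs with a sequence to -0.096. The log2 fold change became -0.13 for miR-126a-3p, -0.084 for miR-126a-5p, -0.0038 for miR-143-3p, -0.070 for miR-145-3p, -0.15 for miR-221-5p and -0.0041 for miR-222-3p. miR-145-5p was at -0.19, miR-221-3p at 0.093 and miR-143-5p at 0.067. Relative to the median of the same miRNAs, 2 of the 9 members changed side, miR-126a-3p from 0.031 above to -0.037 and miR-221-5p from 0.11 above to -0.056. Another 4 crossed 0 but remained above the median. None of the members had an adjusted p below 0.05 with the offset in edgeR's quasi-likelihood test. miR-221-3p and miR-143-3p were 0.19 and 0.092 above the median with the offset, and miR-145-5p was at -0.095 from it.

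**Figure D5:**
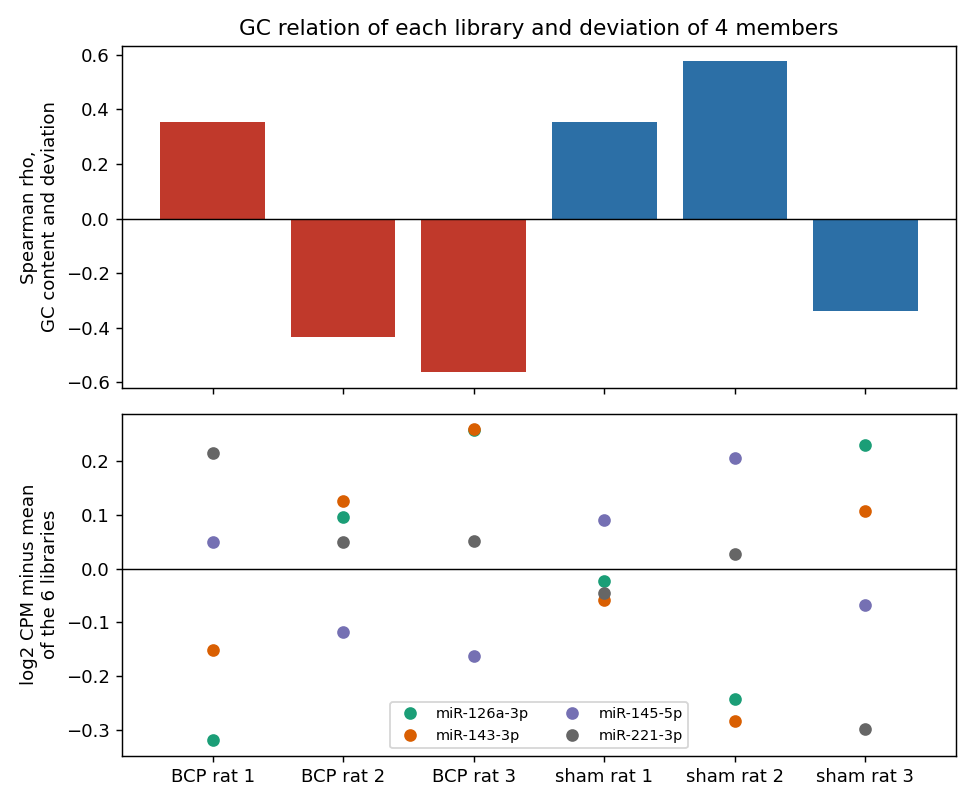
Upper panel, Spearman's rho across 427 miRNAs between GC content and the deviation of each library from the mean of the 6 (red, BCP; blue, sham-operated). Lower panel, log2 CPM of 4 guide strands minus their own mean over the libraries. miR-126a-3p and miR-143-3p are above their mean in the 3 libraries with negative rho and below it in the other 3, and miR-145-5p is the reverse.

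Other miRNAs of vessel wall and blood were taken from lists. Of 5 names associated with endothelium, miR-126b was listed at 0 in every library, and 4 were tested, of which 0 rose and 0 fell at an adjusted p of 0.05. miR-126b comes from the strand opposite to miR-126a, and 17 bases of it are the exact reverse complement of miR-126a-5p. miR-322-5p and miR-322-3p had log2 fold changes of 0.23 (adjusted p = 0.680) and -0.29 (adjusted p = 0.379), and miR-503-5p and miR-503-3p had -0.10 (adjusted p = 0.918) and -0.35 (adjusted p = 0.404), all from edgeR's quasi-likelihood test. The median of the 4 was -0.20. The sum of this list was 104 to 107 CPM in the BCP rats, against 110 to 131 CPM in sham-operated rats. In it miR-322-3p had means of 57.7 CPM in the BCP group and 70.8 CPM in the sham-operated group, and miR-503-3p had 24.8 and 31.6 CPM. miR-322-5p went the other way, with 21.3 and 18.1 CPM. miR-322-3p was lower in every BCP rat without overlap, as were 5.23% of all tested miRNAs.

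Of 6 names associated with mural cells and fibroblasts, miR-214-5p was listed at 0 and 5 were tested, from the miR-199a, miR-214 and miR-140 hairpins. Their median log2 fold change was 0.093, and 0 passed the adjusted threshold in either direction. The sum of this list was 973 to 1076 CPM in the BCP rats, against 805 to 892 CPM in sham-operated rats. The gap came from miR-140-3p, with 692 ± 80.3 CPM in the BCP group and 534 ± 57.0 CPM in the sham-operated group (SD, n = 3 rats each; log2 fold change 0.38, adjusted p = 0.214, quasi-likelihood test of edgeR). Without it the list summed to 305 to 373 CPM against 266 to 406 CPM, with overlap. The log2 fold changes of the other 4 were 0.21 for miR-199a-5p, -0.024 for miR-199a-3p, -0.065 for miR-214-3p and 0.093 for miR-140-5p. Among blood cell names, the 3 listed red cell miRNAs were at 0, and the fourth, miR-486, was not in the table under that name. Of 4 white cell names, both arms of miR-142 were at 0.

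miR-150-5p, a lymphocyte miRNA, had 1131 ± 154 CPM in the BCP group and 1241 ± 146 CPM in the sham-operated group (SD, n = 3 rats each), with a log2 fold change of -0.13 (adjusted p = 0.725, quasi-likelihood test of edgeR). The myeloid miR-223-3p rose from 1.5 ± 0.825 CPM to 6.51 ± 1.25 CPM (SD, n = 3 rats each), with an adjusted p of 0.019 in the same test. The skeletal muscle miRNAs miR-1-3p, miR-133a-3p, miR-133b-3p and miR-206-3p, which would mark muscle from dissection, summed to 110 to 115 CPM in the BCP rats, against 97.4 to 120 CPM in sham-operated rats, and 0 of the 4 passed the test. How far blood or muscle contributed to the levels of the vascular members was not tested.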

How the data were processed

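After trimming and filtering, the authors mapped the reads to the rat genome (Rnor 6.0, with Bowtie2 2.2.3 in the submitters' processing notes). They identified known miRNAs by their miRBase annotation and a length of 21 to 22 nucleotides. miR-145-5p, miR-221-3p and miR-221-5p are 23 nucleotides long, and how this length rule was applied to them is not stated. The table deposited by the authors holds raw counts of reads per mature miRNA, not normalized, in 6 libraries with 1 rat each. How reads that match several miRNAs were assigned is not given in the sources used here.

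The test was that of edgeR 4.0.16 in R 4.3.3 (filterByExpr with a minimum count of 10, TMM, quasi-likelihood test, Benjamini-Hochberg adjustment over 459 miRNAs), and a call needed an adjusted p below 0.05 with a log2 fold change beyond 0.8 in either direction. Arm ratios were log2((5p + 0.5)/(3p + 0.5)), fitted with limma 3.58.1 over 149 precursors. The alternatives were other filters, total counts, RLE, DESeq2 1.42.0, likelihood ratio and exact tests, limma-voom, the replicate block, leaving out each rat and, added after the data were seen, a GC offset. The named miRNAs are the members, the listed vascular, blood and tissue miRNAs, and the 3 most correlated with the guide strand of each locus. Members and lists were chosen with earlier results of these data known. The tests were tried on simulated data.

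Total counts ranged from 13464349 to 23770677. Intervals and limits for counts of 0 cover counting error only, because PCR copies of 1 molecule were not marked. The labels do not say that rats with 1 number were paired. Libraries of a group were compared to find any deposited more than once, and none was found (chi-square per degree of freedom 50.8 to 535). Genome coordinates are not given, because the RefSeq tables are of another assembly, GRCr8.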

Additional observations from a re-analysis of the deposited data

How the results depend on the processing

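Over the alternatives run, 0 of the 9 tested members passed both thresholds, and the smallest adjusted p of a member was 0.162, for miR-145-5p. The number of called miRNAs, 16, was 25 with the likelihood ratio test and 8 to 20 with a rat left out, the lowest without BCP rat 2; it was 10 without BCP rat 3 and 9 without sham-operated rat 1. Of 153 recomputed member fold changes, 127 kept their sign and 26 did not. With the GC offset together with the replicate block they were -0.083 (miR-126a-5p), -0.14 (miR-126a-3p), -0.0031 (miR-143-3p), -0.073 (miR-145-3p), -0.15 (miR-221-5p) and -0.0048 (miR-222-3p), and with the offset alone -0.084, -0.13, -0.0038, -0.0701, -0.15 and -0.0041; the median of all miRNAs moved to -0.094 and -0.096, and with the offset alone 4 of these 6 remained above it. miR-143-5p was -0.0071 with no filter, -0.015 with total counts, -0.021 with RLE and -0.0200 with DESeq2. Leaving out a rat gave -0.036 to 0.44 for miR-126a-5p, -0.11 to 0.16 for miR-126a-3p, -0.17 to 0.23 for miR-143-5p and -0.058 to 0.0600 for miR-222-3p. The sign changed without BCP rat 3 or sham-operated rat 2 for miR-126a-5p, without these or sham-operated rat 1 for miR-126a-3p, without any of these or BCP rat 2 for miR-143-5p, and without sham-operated rat 3 for miR-222-3p and the miR-143 arm ratio. Leaving out a rat gave -0.20 to 0.015 for the miR-143 arm ratio, -0.033 to 0.37 for miR-221-3p to miR-126a-3p and -0.22 to 0.135 for miR-143-3p to miR-221-3p. With the GC offset, with and without the replicate block, the miR-143 arm ratio was 0.131. Of the arm ratio values 41 of 44 kept their sign, as did 41 of 45 locus ratio values. Rats that share a number are different animals. The correlations of their deviations from the group means were 0.109, -0.452 and 0.711. Whether the numbers mark a pairing cannot be told from so few values. With the replicate block alone 18 miRNAs were called. The cause of these changes was not tested. With 3 rats a group, exact permutation tests between the groups cannot go below 0.1, and changes of the members smaller than their intervals were not detectable.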
